A study of Homo sapiens with 8 samples.

Results

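The genes described here encode the enzymes that make cholesterol and fatty acids and the proteins that control those enzymes. The 34 members were taken by name from a list of the pathway, and each was found by its Ensembl identifier among the 58721 genes counted in every library. Of these members, 5 are regulators, 7 belong to the mevalonate arm, 12 to the squalene and sterol arm, 2 bind or carry sterols, and 8 make or modify fatty acids. All 34 passed the filter on low counts. Their coordinates are those of GENCODE 29 on GRCh38.

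RNA was sequenced from CHLA-20 and NGP, established human neuroblastoma cell lines, after 6 days with an inhibitor of the protein arginine methyltransferase PRMT5 or with its vehicle. The sample names call the inhibitor JSK591, whereas the treatment protocol names GSK591 at its IC50. There were 2 libraries each of NGP cells with JSK591, NGP cells with DMSO, CHLA-20 cells with JSK591 and CHLA-20 cells with DMSO. CHLA-20 cells grew in IMEM with serum and an insulin, transferrin and selenite supplement, and NGP cells in RPMI1640 with serum, so line and medium cannot be told apart. Each group is 1 cell line, and the labels do not say whether replicates were separate cultures, so p-values measure the spread between these libraries, which may be technical.

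Cells make cholesterol from acetyl-CoA through mevalonate, farnesyl diphosphate, squalene and a chain of sterols. SREBF2 and SREBF1 encode transcription factors that are held in the endoplasmic reticulum as precursors. When membrane cholesterol is low, SCAP escorts the precursors to the Golgi, where they are cleaved, and the released part enters the nucleus and switches on the synthesis genes. INSIG1 and INSIG2 hold SCAP back when sterols are plentiful, and INSIG1 is itself a target of the pathway.

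Gene counts summed to between 33188542 and 34914902 per library. The first principal component of log2 CPM (counts scaled to library size, normalised by TMM) held 90.6% of the variance and separated the lines, and the second held 3.49% and separated JSK591 from DMSO within each line. Of 8 markers of adrenergic neuroblastoma, 7 passed the filter, and CHGA had 1 count over all libraries. In NGP libraries, TH had 16 to 28 counts and DBH 8 to 12. Of 6 blood markers none passed the filter, and PTPRC had 0 to 4 counts per library. Summed epithelial markers lay between 2.02 and 5.17 CPM. Summed fibroblast and Schwann cell markers were 774 ± 27.1 CPM with JSK591 and 662 ± 9.90 CPM with DMSO in NGP, and 347 ± 3.78 CPM with JSK591 and 384 ± 1.31 CPM with DMSO in CHLA-20 (SD, n = 2 each). Their part in the results was not tested. In bulk RNA, a change in the number of cells of one kind and a change in RNA per cell cannot be told apart.

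Some members were counted with less certainty. ACACA, the carboxylase that makes malonyl-CoA, had 133 and 90 counts with JSK591 and 105 and 130 with DMSO in CHLA-20, and 1 to 4 counts in each NGP library. Its neighbour AATF had 0 counts in all 8 libraries, DUSP14 had 1 and SYNRG 6, so the level of ACACA is doubtful. Other annotated genes share 83.2% of the exonic bases of CYP51A1 and 52.3% of those of ACAT2. The share was 18.6% for FDPS, 15.0% for HMGCS1, 14.8% for IDI1 and 11.9% for TMEM97. FDPS, HSD17B7 and SCD have pseudogenes that could share their reads.

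Promoters are shown for SREBF2, whose window holds the sterol element, and for the members that changed by at least 1.5-fold in NGP and whose listed starts lie within one window's length of each other. The sequences are from a set of RefSeq promoters on GRCh38.p14 that held 30 of the 34 members. ACAT2, FDFT1, SQLE and FASN were not in that set, so FDFT1 is not shown although it changed by at least 1.5-fold. Each sequence runs from 250 bases before to 50 bases after the start on the gene's strand. Capitals mark the sterol regulatory element and the CCAAT box, which reads ATTGG where it lies on the other strand. They are SREBF2 at chr22:41832855-41833154 (plus strand), INSIG1 at chr7:155297628-155297927 (plus), HMGCS1 at chr5:43313363-43313662 (minus), MVD at chr16:88663042-88663341 (minus) and MSMO1 at chr4:165327419-165327718 (plus).
SREBF2: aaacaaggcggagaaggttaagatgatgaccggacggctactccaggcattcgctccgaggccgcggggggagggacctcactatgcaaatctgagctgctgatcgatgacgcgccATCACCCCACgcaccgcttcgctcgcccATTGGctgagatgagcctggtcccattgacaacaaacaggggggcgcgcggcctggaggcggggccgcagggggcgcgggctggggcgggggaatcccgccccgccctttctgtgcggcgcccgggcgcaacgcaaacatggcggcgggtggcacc
INSIG1: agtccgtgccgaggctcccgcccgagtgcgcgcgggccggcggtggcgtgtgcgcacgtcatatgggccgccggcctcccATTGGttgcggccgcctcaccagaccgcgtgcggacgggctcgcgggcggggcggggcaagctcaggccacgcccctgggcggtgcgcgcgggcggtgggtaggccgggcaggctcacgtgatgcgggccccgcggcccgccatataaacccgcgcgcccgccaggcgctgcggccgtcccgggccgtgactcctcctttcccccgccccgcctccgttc
HMGCS1: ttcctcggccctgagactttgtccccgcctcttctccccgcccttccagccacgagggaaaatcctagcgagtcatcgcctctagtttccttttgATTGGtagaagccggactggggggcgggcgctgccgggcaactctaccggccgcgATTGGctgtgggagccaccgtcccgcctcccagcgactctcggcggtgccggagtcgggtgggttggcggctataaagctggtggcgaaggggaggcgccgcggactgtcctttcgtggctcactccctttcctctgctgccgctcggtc
MVD: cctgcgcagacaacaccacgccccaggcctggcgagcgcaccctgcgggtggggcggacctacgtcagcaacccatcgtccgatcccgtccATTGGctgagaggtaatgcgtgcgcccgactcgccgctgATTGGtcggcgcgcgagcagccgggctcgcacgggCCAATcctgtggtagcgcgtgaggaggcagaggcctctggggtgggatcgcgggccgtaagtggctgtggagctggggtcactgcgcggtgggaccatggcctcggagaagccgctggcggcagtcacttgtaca
MSMO1: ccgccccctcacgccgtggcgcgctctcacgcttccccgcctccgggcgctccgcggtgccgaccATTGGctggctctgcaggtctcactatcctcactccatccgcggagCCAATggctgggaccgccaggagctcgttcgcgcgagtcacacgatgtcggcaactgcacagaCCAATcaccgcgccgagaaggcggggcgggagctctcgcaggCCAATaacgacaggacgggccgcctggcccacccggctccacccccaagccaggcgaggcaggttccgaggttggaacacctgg

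The CCAAT box, the binding sequence of NF-Y, a factor known to act together with the SREBF proteins, was in 19 of the 30 member promoters (63.3%), against 36.0% of the promoters of genes tested. The printed windows hold 1 match in SREBF2, 1 in INSIG1, 2 in HMGCS1, 3 in MVD and 4 in MSMO1. The sterol element was in 1 member promoter, that of SREBF2, where it began 134 bases before the start, and in 0.0430% of the promoters of genes tested. Its shorter core TCACNCCAC overlaps it, was found in the same member alone, and was in 1.09% of the promoters of genes tested. The E-box CACGTG was in 13.3% of member promoters and 9.71% of those of genes tested, and the GC box GGGCGG in 90.0% and 68.0%. Both strands were searched, with exact matches at the first listed start. These are matches of letters and not binding sites.

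In NGP cells most of the pathway was lower with JSK591. Of the 34 members, 25 fell and 2 rose at an adjusted p under 0.05 in edgeR's quasi-likelihood test, and 7 did not pass. Of all 19395 genes tested, 19.4% fell and 16.8% rose. The median log2 change of the members was -0.34, and that of all genes was 0.00. A fall of at least 1.5-fold was seen in 7 members, ACSS2, MSMO1, HMGCS1, FDFT1, IDI1, MVD and INSIG1, and in 2.4% of all genes. The JSK591 and DMSO libraries did not overlap in 29 members, against 65.3% of all genes.

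In CHLA-20 cells the response was smaller and mixed. Of the 34 members, 15 fell and 6 rose, and 13 did not pass, whereas 22.4% of all genes fell and 16.9% rose. The median log2 change of the members was -0.06, beside -0.02 over all genes. Without CHLA-20 DMSO replicate 2 the members' median was -0.014, and with the GC trend removed it was -0.0296. Only MVD and ACSS2 fell by at least 1.5-fold, as did 5.53% of all genes. The libraries did not overlap in 26 members, against 66.6% of all genes.

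**Figure D1:**
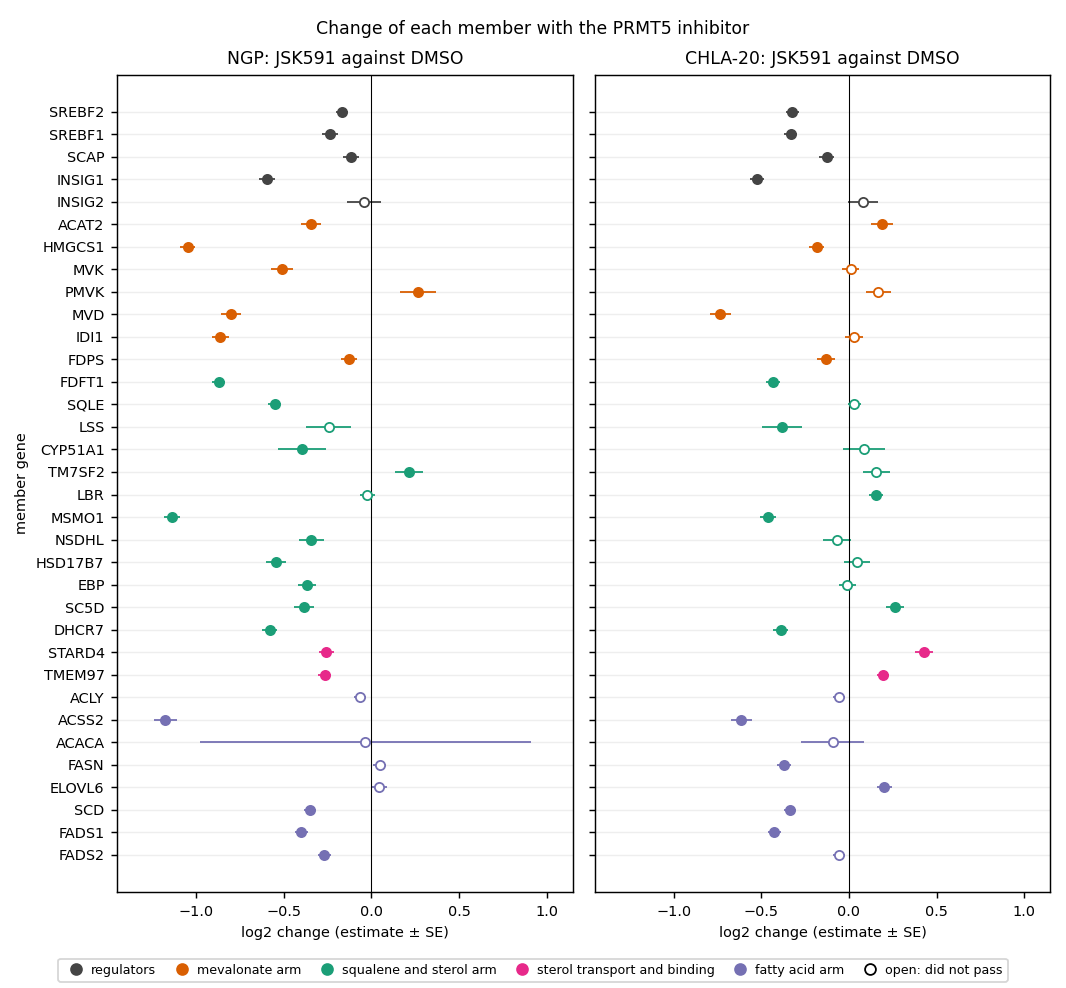
Log2 change of each of the 34 members with JSK591 against DMSO, in NGP cells (left) and CHLA-20 cells (right). Points are edgeR estimates, bars are the SE, colours are roles, and open points did not pass an adjusted p of 0.05. In NGP 25 filled points lie left of 0, and in CHLA-20 15 do.

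Among the regulators, SREBF2, SREBF1, SCAP and INSIG1 fell in both lines, and INSIG2 passed in neither. SREBF2 (chr22:41833079-41907308, plus strand), the main activator of the cholesterol genes, had 601 and 605 CPM with JSK591 and 664 and 690.1 CPM with DMSO in NGP (log2 change -0.17 ± 0.04 (SE), adjusted p = 9.31e-05). In CHLA-20 it had 459 and 461 CPM with JSK591 and 574 and 576 CPM with DMSO (log2 change -0.32 ± 0.04 (SE), adjusted p = 2.24e-11). Every JSK591 library was below every DMSO library of its line.

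SREBF1 (chr17:17810399-17837002, minus strand), whose products act more on fatty acid genes, had 62.3 and 58.7 CPM with JSK591 and 70.9 and 71.7 CPM with DMSO in NGP (log2 change -0.24 ± 0.05 (SE), adjusted p = 2.09e-05). The CHLA-20 cells had 184 and 182 CPM with JSK591 and 228 and 234 CPM with DMSO (log2 change -0.33 ± 0.04 (SE), adjusted p = 8.94e-11). The groups did not overlap in either line.

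SCAP (chr3:47413694-47477126, minus strand), the escort of the precursors, had 66.99 and 69.00 CPM with JSK591 and 71.6 and 75.6 CPM with DMSO in NGP (log2 change -0.11 ± 0.05 (SE), adjusted p = 0.0431). In CHLA-20 there were 129 and 124 CPM with JSK591 and 136 and 140.1 CPM with DMSO (log2 change -0.13 ± 0.04 (SE), adjusted p = 0.0101). Both falls were small and rested on single libraries and settings. In NGP the change was -0.09 without DMSO replicate 2, -0.11 without JSK591 replicate 1 and -0.13 without JSK591 replicate 2, and it also missed the threshold without either CHLA-20 JSK591 library (-0.11 and -0.11). It was -0.18 without DMSO replicate 1. In CHLA-20 it was -0.08 without DMSO replicate 2, -0.10 without JSK591 replicate 2 and -0.10 without NGP JSK591 replicate 1, none of which passed, and it was 0.01 once the trend with GC content was removed. With no filter SCAP passed in neither line (adjusted p = 0.121 in NGP and adjusted p = 0.0543 in CHLA-20), and in NGP it also missed the threshold under total count scaling (adjusted p = 0.137), the filter of 10 counts (adjusted p = 0.0672) and the fit of the line alone (adjusted p = 0.0599).

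INSIG1 (chr7:155297776-155310235, plus strand), the retention protein that is itself induced by the pathway, fell the most of the regulators. It had 62.9 and 68.1 CPM with JSK591 and 98.5 and 99.6 CPM with DMSO in NGP (log2 change -0.60 ± 0.05 (SE), adjusted p = 5.62e-17). CHLA-20 libraries gave 119 and 118 CPM with JSK591 and 165 and 176 CPM with DMSO (log2 change -0.53 ± 0.04 (SE), adjusted p = 1.36e-16). The groups were apart in both lines. INSIG2 (chr2:118088452-118110997, plus strand), its relative, had 10.1 and 8.50 CPM with JSK591 and 9.54 and 9.62 CPM with DMSO in NGP (log2 change -0.04 ± 0.10 (SE), adjusted p = 0.771), and 14.4 and 13.1 CPM with JSK591 and 12.9 and 13.2 CPM with DMSO in CHLA-20 (log2 change 0.08 ± 0.09 (SE), adjusted p = 0.511). Its groups overlapped in both lines.

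The mevalonate arm turns acetyl-CoA into farnesyl diphosphate. In NGP 6 of its 7 members fell and PMVK rose, and in CHLA-20 3 fell, 1 rose and 3 did not pass. HMGCS1 (chr5:43289395-43313512, minus strand), which makes HMG-CoA, had 91.7 and 90.96 CPM with JSK591 and 195 and 183 CPM with DMSO in NGP (log2 change -1.05 ± 0.04 (SE), adjusted p = 5.33e-29). In CHLA-20 it had 89.4 and 99.9 CPM with JSK591 and 109 and 106 CPM with DMSO (log2 change -0.18 ± 0.04 (SE), adjusted p = 5.58e-04). The NGP groups lie far apart and those of CHLA-20 close together, and without CHLA-20 JSK591 replicate 1 the change there was -0.11 and did not pass.

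IDI1 (chr10:1039152-1049170, minus strand), the isomerase that supplies both isoprene units, had 55.1 and 56.6 CPM with JSK591 and 105 and 98.5 CPM with DMSO in NGP (log2 change -0.86 ± 0.05 (SE), adjusted p = 1.36e-22). The CHLA-20 cells had 55.9 and 58.01 CPM with JSK591 and 52.5 and 59.2 CPM with DMSO (log2 change 0.03 ± 0.05 (SE), adjusted p = 0.723). The groups were apart in NGP and overlapped in CHLA-20. MVD (chr16:88651935-88663161, minus strand), the decarboxylase of the arm, fell in both lines. It had 27.1 and 26.6 CPM with JSK591 and 47.2 and 46.5 CPM with DMSO in NGP (log2 change -0.80 ± 0.06 (SE), adjusted p = 6.62e-18), and 21.8 and 20.7 CPM with JSK591 and 33.9 and 36.7 CPM with DMSO in CHLA-20 (log2 change -0.73 ± 0.06 (SE), adjusted p = 1.67e-15). No JSK591 library reached a DMSO library of its line.

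MVK, mevalonate kinase, fell in NGP (log2 change -0.51 ± 0.06, SE) and did not pass in CHLA-20 (0.01 ± 0.05), where it passed as higher with the GC trend removed (0.13, adjusted p = 0.0196). ACAT2, which joins acetyl-CoA units, fell in NGP (-0.35 ± 0.06) and rose in CHLA-20 (0.19 ± 0.06). That rise did not pass without CHLA-20 DMSO replicate 1 (0.18) or without JSK591 replicate 2 (0.10), nor with no filter (adjusted p = 0.0633). FDPS, which makes farnesyl diphosphate, was lower by little in NGP (-0.13 ± 0.05) and CHLA-20 (-0.13 ± 0.05). Its NGP call was lost without DMSO replicate 1 (-0.13) or JSK591 replicate 2 (-0.11). In CHLA-20 the value was -0.07 without DMSO replicate 2, -0.06 without JSK591 replicate 1 and -0.21 without JSK591 replicate 2, and only the last of these passed. Leaving out NGP DMSO replicate 1, NGP DMSO replicate 2 or NGP JSK591 replicate 1 also ended it, at -0.10 each, and so did DESeq2 (adjusted p = 0.113), total count scaling (adjusted p = 0.0714), no filter (adjusted p = 0.165), the fit of the line alone (adjusted p = 0.09) and GC removal (adjusted p = 0.0925). The NGP call of FDPS was also lost under total count scaling (adjusted p = 0.0867) and with no filter (adjusted p = 0.108).

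PMVK, phosphomevalonate kinase, was higher in NGP (0.27 ± 0.10) and did not pass in CHLA-20 (0.17 ± 0.07). The NGP call was lost without any 1 of the 4 NGP libraries, at 0.22 to 0.28, without CHLA-20 DMSO replicate 2 (0.25) and with DESeq2 (adjusted p = 0.118), with no filter (adjusted p = 0.0781) and with the GC trend removed (adjusted p = 0.0922). In CHLA-20 PMVK passed without NGP DMSO replicate 1, NGP DMSO replicate 2 or NGP JSK591 replicate 1, at 0.20 each. It also passed there under total count scaling (0.18), relative log expression size factors (0.18), the filter of 10 counts (0.18), the fit of the line alone (0.19) and GC removal (0.28). The summed level of the arm was 323 ± 1.97 CPM with JSK591 and 511 ± 17.9 CPM with DMSO in NGP, a ratio of 0.632. In CHLA-20 the sum was 339 ± 14.2 CPM with JSK591 and 362 ± 8.89 CPM with DMSO (SD, n = 2 each), a ratio of 0.935.

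**Figure D2:**
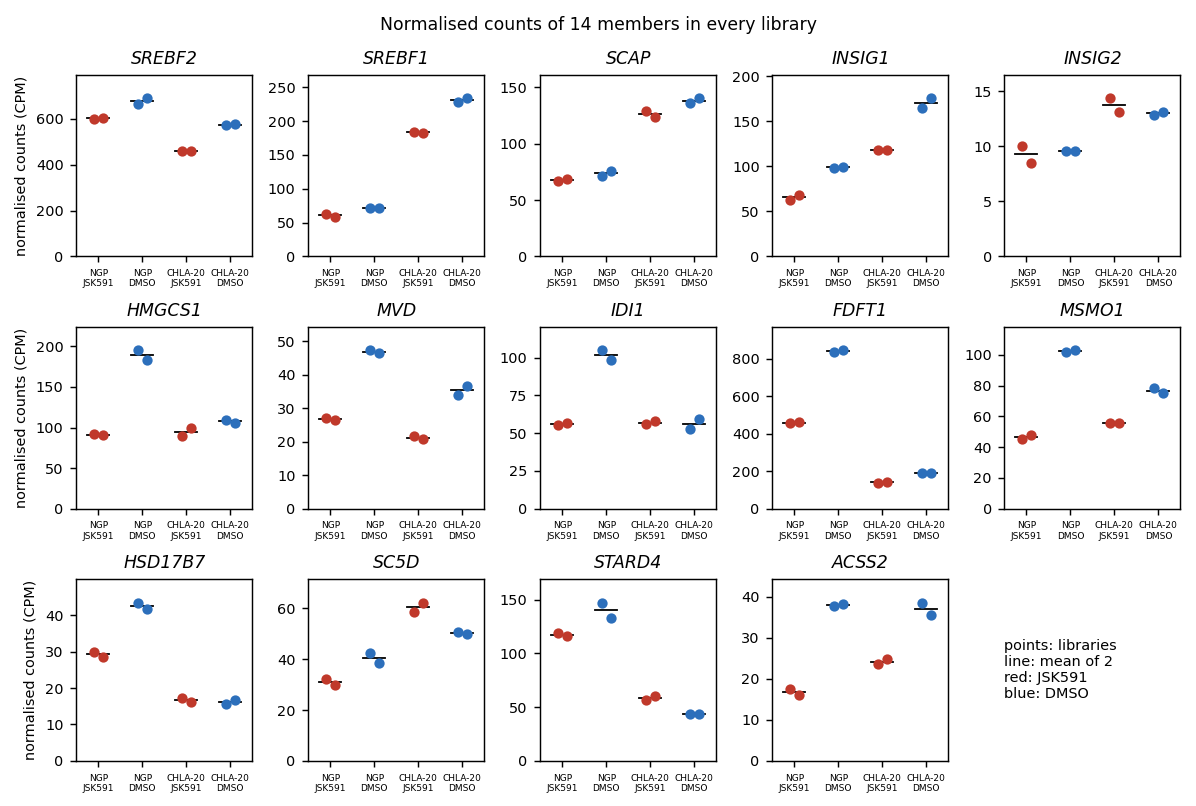
Normalised counts (CPM, linear axes from 0) of 14 members in every library, NGP left of CHLA-20 and JSK591 left of DMSO. Points are libraries and lines are means of 2, and HMGCS1 and IDI1 show a gap between JSK591 and DMSO in NGP that is small or missing in CHLA-20.

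The squalene and sterol arm builds the sterol ring and trims it to cholesterol. In NGP 9 of its 12 members fell and TM7SF2 rose, and in CHLA-20 4 fell, 2 rose and 6 did not pass. FDFT1 (chr8:11795573-11839309, plus strand), squalene synthase, had 456 and 463 CPM with JSK591 and 838 and 844 CPM with DMSO in NGP (log2 change -0.87 ± 0.04 (SE), adjusted p = 1.60e-29). In CHLA-20 there were 139 and 142 CPM with JSK591 and 191 and 189 CPM with DMSO (log2 change -0.43 ± 0.04 (SE), adjusted p = 1.15e-14). The groups were apart in both lines.

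MSMO1 (chr4:165327623-165343160, plus strand), a sterol methyl oxidase, had 45.3 and 47.7 CPM with JSK591 and 102 and 103 CPM with DMSO in NGP (log2 change -1.14 ± 0.05 (SE), adjusted p = 2.93e-29). CHLA-20 libraries gave 55.9 and 55.6 CPM with JSK591 and 78.4 and 75.1 CPM with DMSO (log2 change -0.46 ± 0.05 (SE), adjusted p = 1.34e-12). Every JSK591 library lay below the DMSO libraries of its line. HSD17B7 (chr1:162790702-162812817, plus strand), a sterol ketoreductase, had 29.8 and 28.6 CPM with JSK591 and 43.4 and 41.7 CPM with DMSO in NGP (log2 change -0.54 ± 0.06 (SE), adjusted p = 1.67e-11), and 17.2 and 16.3 CPM with JSK591 and 15.7 and 16.7 CPM with DMSO in CHLA-20 (log2 change 0.05 ± 0.07 (SE), adjusted p = 0.655). It was apart in NGP and overlapped in CHLA-20.

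SC5D (chr11:121292453-121308694, plus strand), the sterol desaturase late in the chain, moved in opposite directions. It had 32.3 and 29.96 CPM with JSK591 and 42.6 and 38.6 CPM with DMSO in NGP (log2 change -0.38 ± 0.06 (SE), adjusted p = 1.61e-07). In CHLA-20 it had 58.6 and 62.2 CPM with JSK591 and 50.9 and 49.7 CPM with DMSO (log2 change 0.26 ± 0.05 (SE), adjusted p = 2.81e-05). The groups did not overlap in either line, with JSK591 on the lower side in NGP and on the upper side in CHLA-20.

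SQLE, squalene epoxidase, fell in NGP (log2 change -0.55 ± 0.04, SE) and did not pass in CHLA-20 (0.03 ± 0.04). NSDHL, which removes a carboxyl group from the ring, fell in NGP (-0.34 ± 0.07) and did not pass in CHLA-20 (-0.07 ± 0.08). EBP, a sterol isomerase, likewise fell in NGP (-0.37 ± 0.05), with -0.01 ± 0.05 in CHLA-20. DHCR7, which carries out a last reduction, fell in NGP (-0.58 ± 0.04) and in CHLA-20 (-0.39 ± 0.04). CYP51A1, the lanosterol demethylase, fell in NGP (-0.40 ± 0.14) and did not pass in CHLA-20 (0.09 ± 0.12), and its NGP call was lost without DMSO replicate 2 (-0.41) or JSK591 replicate 2 (-0.31) and with DESeq2 (adjusted p = 0.068).

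LSS, which closes the ring, did not pass in NGP (-0.24 ± 0.13), except with GC removal and the replicate block together (-0.30, adjusted p = 0.0479), and fell in CHLA-20 (-0.38 ± 0.12), where the call was lost without DMSO replicate 1 (-0.30) or JSK591 replicate 2 (-0.29) and with DESeq2 (adjusted p = 0.0599). TM7SF2 and LBR both encode sterol reductases for the same step, and LBR is also a protein of the nuclear envelope. TM7SF2 was higher in NGP (0.21 ± 0.08) and did not pass in CHLA-20 (0.16 ± 0.08). The NGP call was lost without any 1 NGP library (0.19 to 0.22), without CHLA-20 DMSO replicate 2 (0.19), and with DESeq2 (adjusted p = 0.153), no filter (adjusted p = 0.102) or GC removal (0.14, adjusted p = 0.167). In CHLA-20 TM7SF2 passed without CHLA-20 DMSO replicate 2 (0.28) and with GC removal (0.32). LBR did not pass in NGP (-0.02 ± 0.04) and rose in CHLA-20 (0.15 ± 0.04), but not without JSK591 replicate 2 there (0.12). The arm summed to 1023 ± 11.1 CPM with JSK591 and 1627 ± 10.1 CPM with DMSO in NGP (ratio 0.629), and to 753 ± 12.2 CPM with JSK591 and 828 ± 6.92 CPM with DMSO in CHLA-20 (ratio 0.910, SD, n = 2 each).

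**Figure D3:**
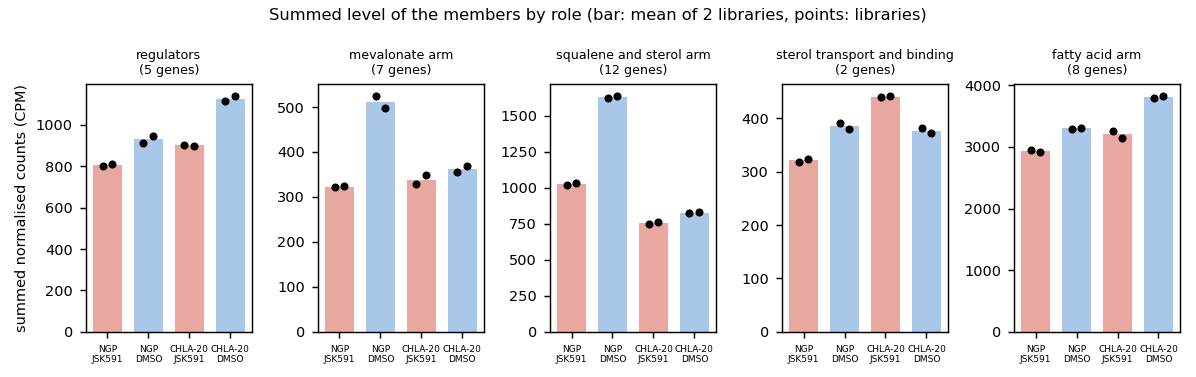
Summed CPM of the members by role, as bars from 0 (means of 2 libraries) with the libraries as points, JSK591 left of DMSO within each line. The mevalonate arm stands at 323 ± 1.97 CPM with JSK591 and 511 ± 17.9 CPM with DMSO in NGP, and its CHLA-20 bars lie closer together.

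Both sterol carriers fell in NGP and rose in CHLA-20. STARD4 (chr5:111496033-111512590, minus strand), a soluble protein that moves cholesterol between membranes, had 119 and 116 CPM with JSK591 and 147 and 133 CPM with DMSO in NGP (log2 change -0.26 ± 0.04 (SE), adjusted p = 1.70e-06). The CHLA-20 cells had 56.7 and 59.9 CPM with JSK591 and 43.3 and 43.2 CPM with DMSO (log2 change 0.43 ± 0.05 (SE), adjusted p = 2.18e-10). The groups were apart in both lines, on opposite sides. TMEM97, a sterol-binding membrane protein also known as the sigma-2 receptor, had a log2 change of -0.27 ± 0.04 in NGP and 0.20 ± 0.04 in CHLA-20 (SE).

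In the fatty acid arm, 4 of 8 members fell in NGP and 4 did not pass, and in CHLA-20 4 fell and ELOVL6 rose. ACSS2 (chr20:34872146-34927962, plus strand), which makes acetyl-CoA from acetate, fell the most of all members in NGP. It had 17.5 and 16.1 CPM with JSK591 and 37.7 and 38.3 CPM with DMSO in NGP (log2 change -1.18 ± 0.06 (SE), adjusted p = 5.13e-23), and 23.6 and 24.8 CPM with JSK591 and 38.6 and 35.5 CPM with DMSO in CHLA-20 (log2 change -0.61 ± 0.06 (SE), adjusted p = 9.67e-13). The groups were apart in both lines.

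The desaturases SCD and FADS1 fell in both lines, SCD with -0.35 ± 0.04 in NGP and -0.34 ± 0.04 in CHLA-20, and FADS1 with -0.40 ± 0.04 in NGP and -0.43 ± 0.04 in CHLA-20 (log2 change, SE). FADS2, the desaturase of an earlier step, fell in NGP (-0.27 ± 0.04) and did not pass in CHLA-20 (-0.06 ± 0.04). FASN, fatty acid synthase, did not pass in NGP (0.05 ± 0.04) and fell in CHLA-20 (-0.37 ± 0.04). ELOVL6, an elongase, did not pass in NGP (0.04 ± 0.05) and rose in CHLA-20 (0.20 ± 0.04). ACLY, which makes cytosolic acetyl-CoA from citrate, passed in neither line (-0.07 ± 0.04 in NGP and -0.06 ± 0.04 in CHLA-20), though it passed as lower in NGP without CHLA-20 DMSO replicate 2 (-0.09), with DESeq2 (-0.08, adjusted p = 0.0265) and with the GC trend removed (-0.12, adjusted p = 0.00113). ACACA also passed in neither, with -0.04 ± 0.94 in NGP and -0.09 ± 0.18 in CHLA-20 at its doubtful counts. The arm summed to 2929.8 ± 23.2 CPM with JSK591 and 3300.3 ± 11.4 CPM with DMSO in NGP, and to 3201 ± 78.99 CPM with JSK591 and 3806 ± 21.2 CPM with DMSO in CHLA-20 (SD, n = 2 each).

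Set side by side, 13 members fell in both lines, and 4, ACAT2, SC5D, STARD4 and TMEM97, fell in NGP and rose in CHLA-20. A further 8 fell in NGP and did not pass in CHLA-20, and 3 passed in neither line. PMVK and TM7SF2 passed as higher in NGP alone. LBR and ELOVL6 passed as higher, and LSS and FASN as lower, in CHLA-20 alone. The share of all genes with each pair of calls was not computed, so these counts are not read as a trait of the pathway. Whether the effects differ was tested by the interaction of line and treatment, the log2 change in NGP minus that in CHLA-20. It was negative at an adjusted p under 0.05 in 18 members and positive in 2, against 12.5% and 15.2% of all genes, and did not pass in 14. The median of the difference was -0.19 over the members and 0.03 over all genes.

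By role, a negative difference passed in 10 of 12 members of the squalene and sterol arm and 4 of 7 of the mevalonate arm. It also passed in 2 of 2 sterol carriers and 2 of 8 members of the fatty acid arm. Of the 5 regulators, SREBF2 passed, with a positive value. IDI1 had the most negative difference (log2 difference -0.89 ± 0.07 (SE), adjusted p = 8.35e-16), followed by HMGCS1 (log2 difference -0.86 ± 0.06 (SE), adjusted p = 2.46e-17), STARD4 (log2 difference -0.69 ± 0.07 (SE), adjusted p = 1.49e-12) and MSMO1 (log2 difference -0.68 ± 0.07 (SE), adjusted p = 1.60e-12). For FASN the difference was positive (log2 difference 0.42 ± 0.05 (SE), adjusted p = 9.87e-09). MVD and INSIG1 did not pass (log2 difference -0.07 ± 0.08 (SE), adjusted p = 0.603 for MVD, log2 difference -0.07 ± 0.06 (SE), adjusted p = 0.436 for INSIG1), which does not show equal effects. With the GC trend removed, the difference for MVD was -0.33 and passed.

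**Figure D4:**
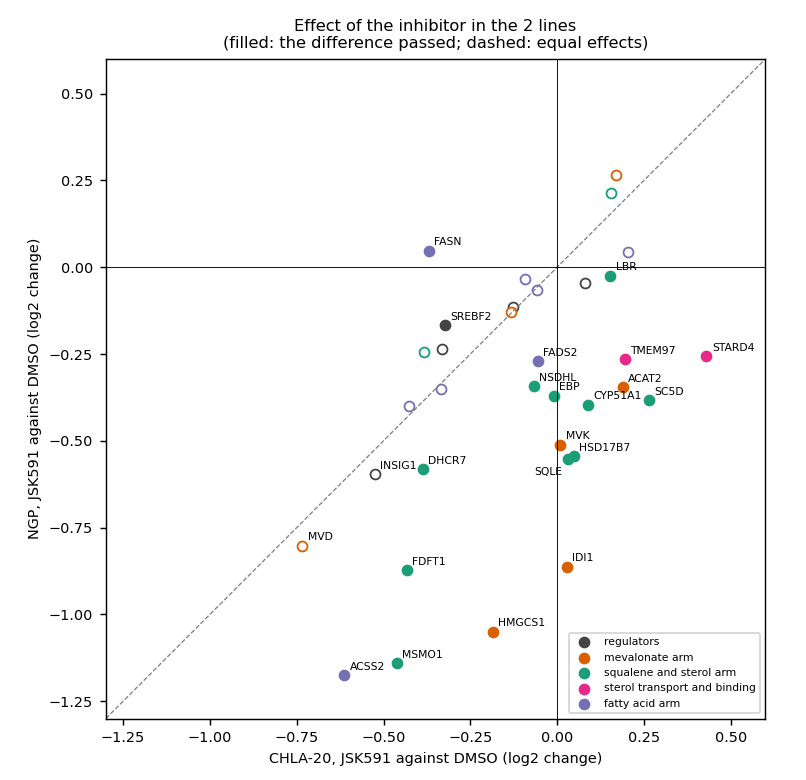
Log2 change with JSK591 against DMSO in NGP (vertical) and in CHLA-20 (horizontal) for each member, coloured by role. Filled points are the 20 members whose difference between lines passed an adjusted p of 0.05, and 18 of them lie below the dashed line of equal effects.

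Single libraries or settings decided several of these differences. SREBF2 (0.15 ± 0.05) did not pass without CHLA-20 DMSO replicate 2 (0.11), either CHLA-20 JSK591 library (0.15 each), NGP DMSO replicate 1 (0.07) or NGP JSK591 replicate 1 (0.11), and was 0.02 with the GC trend removed. NSDHL (-0.28 ± 0.11) was lost without CHLA-20 DMSO replicate 1 (-0.24), CHLA-20 JSK591 replicate 2 (-0.20), NGP DMSO replicate 2 (-0.23) or NGP JSK591 replicate 1 (-0.26). CYP51A1 (-0.48 ± 0.18) was lost without CHLA-20 DMSO replicate 1 (-0.41), either CHLA-20 JSK591 library (-0.49 and -0.48) or NGP JSK591 replicate 2 (-0.40). LBR (-0.18 ± 0.06) was lost without CHLA-20 DMSO replicate 1 (-0.17) or CHLA-20 JSK591 replicate 2 (-0.15), and was -0.10 with the GC trend removed (adjusted p = 0.122). DHCR7 (-0.19 ± 0.06) was lost without CHLA-20 JSK591 replicate 1 (-0.18), and without NGP DMSO replicate 1 it was -0.30 and NSDHL -0.41. With DESeq2 the differences of NSDHL (adjusted p = 0.116) and CYP51A1 (adjusted p = 0.121) did not pass. CYP51A1 was also lost with the GC trend removed (-0.41, adjusted p = 0.0828), and NSDHL under total count scaling (adjusted p = 0.0682). With no filter the differences of CYP51A1, DHCR7, LBR and NSDHL did not pass (adjusted p = 0.091, 0.0532, 0.0505 and 0.18 in that order).

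With DMSO alone the lines already differed in most members. Of the 34, 13 were higher and 15 lower in NGP than in CHLA-20, against 36.6% and 38.9% of all genes, so these shares are near the background. The 15 include ACACA, whose level is doubtful, with 4 and 1 counts in the NGP DMSO libraries. FDFT1 was higher in NGP (log2 difference 2.14 ± 0.04 (SE), adjusted p = 1.14e-51), at 162 ± 0.815 RPKM (CPM per kilobase of exon) in NGP and 36.6 ± 0.271 RPKM in CHLA-20 (SD, n = 2 each). STARD4 (log2 difference 1.69 ± 0.05 (SE), adjusted p = 3.77e-40) and HSD17B7 (log2 difference 1.39 ± 0.06 (SE), adjusted p = 6.51e-29) were also higher in NGP. SREBF1 was lower in NGP (log2 difference -1.69 ± 0.04 (SE), adjusted p = 2.06e-43), at 8.88 ± 0.0628 RPKM in NGP and 28.7 ± 0.530 RPKM in CHLA-20. PMVK (log2 difference -1.58 ± 0.09 (SE), adjusted p = 7.84e-25), MVK (log2 difference -1.10 ± 0.05 (SE), adjusted p = 3.73e-27), SCAP (log2 difference -0.91 ± 0.04 (SE), adjusted p = 4.20e-28) and INSIG1 (log2 difference -0.78 ± 0.04 (SE), adjusted p = 1.56e-25) were lower too.

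Per exonic length, the highest levels with DMSO were those of SCD, at 165 ± 2.30 RPKM in NGP and 158 ± 5.32 RPKM in CHLA-20. FDFT1 came next in NGP (162 ± 0.815 RPKM), and FASN next in CHLA-20 (144 ± 6.68 RPKM). Apart from ACACA, the lowest was LSS, at 0.772 ± 0.0321 RPKM in NGP and 1.06 ± 0.0800 RPKM in CHLA-20. SREBF2 stood above SREBF1 in both lines, at 89.6 ± 2.41 RPKM in NGP and 76.1 ± 0.208 RPKM in CHLA-20.

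**Figure D5:**
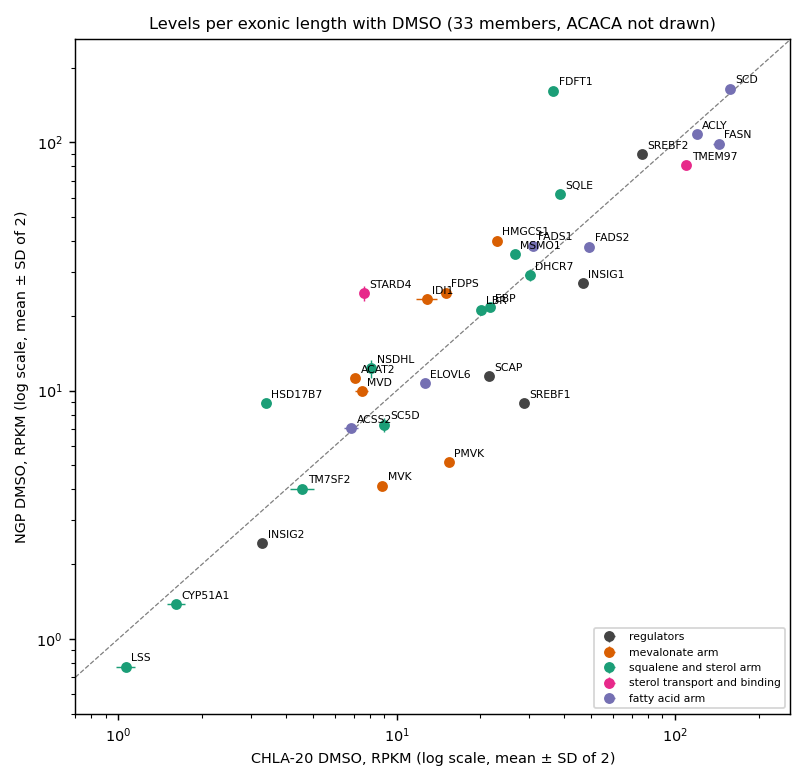
Level per exonic length (RPKM, log axes, mean ± SD of 2 libraries) of 33 members with DMSO, NGP on the vertical and CHLA-20 on the horizontal axis, with the dashed line at equal levels. FDFT1 and STARD4 lie above the line and SREBF1 and PMVK below it, and ACACA is not drawn because its counting is doubtful.

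Other genes of the pathway were counted from lists chosen with earlier results known. Of all genes tested, 19.4% fell and 16.8% rose in NGP, and 22.4% fell and 16.9% rose in CHLA-20. Of 9 genes of sterol synthesis and uptake reported outside the members, 6 passed the filter, and of these 3 fell in NGP and 2 in CHLA-20, and the others did not pass. NPC1, which exports cholesterol from lysosomes, fell in NGP (log2 change -0.43 ± 0.06, SE) and in CHLA-20 (-0.24 ± 0.06). LIPA, the lysosomal lipase, also fell in NGP (-0.22 ± 0.05) and in CHLA-20 (-0.32 ± 0.05). GGPS1, which makes geranylgeranyl diphosphate, fell in NGP (-0.27 ± 0.11).

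Of 9 genes reported from the list of SREBP processing and sterol-driven degradation, 5 fell and 1 rose in NGP, and 4 fell and 2 rose in CHLA-20. In NGP 55.6% fell and 11.1% rose, beside 19.4% and 16.8% of all genes tested. In CHLA-20 44.4% fell and 22.2% rose, beside 22.4% and 16.9%. In NGP the largest changes that passed were in RNF139 (-0.56 ± 0.06) and FBXW7 (-0.43 ± 0.05), both parts of ubiquitin ligases, and in ERLIN1 (-0.38 ± 0.06), a protein of the endoplasmic reticulum membrane. In CHLA-20 they were in TMUB1 (-0.24 ± 0.05), ERLIN1 (-0.24 ± 0.05) and MBTPS2 (0.23 ± 0.05), a protease that cleaves the SREBF precursors. Of 10 genes of LXR and cholesterol efflux, 1 fell and 1 rose in NGP, and 3 fell and 1 rose in CHLA-20. These shares, 10% and 10% in NGP and 30% and 10% in CHLA-20, are near those of all genes or below them. MYLIP, a ubiquitin ligase, fell in NGP (-0.60 ± 0.10) and CHLA-20 (-0.57 ± 0.10). SMPDL3A rose in NGP (0.52 ± 0.15), and of the exporters ABCA1 rose (0.58 ± 0.23) and ABCG1 fell (-0.49 ± 0.10) in CHLA-20. The rise of ABCA1 rested on few counts, 71 and 56 with JSK591 and 49 and 35 with DMSO (adjusted p = 0.0347 in edgeR's test). Single genes outside the members were not compared under other settings.

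Of 30 other genes of fatty acid and glycerolipid synthesis, 27 passed the filter. Of these 48.1% fell and 14.8% rose in NGP, beside 19.4% and 16.8% of all genes tested. In CHLA-20 51.9% fell and 14.8% rose, beside 22.4% and 16.9%. In NGP 13 fell and 4 rose, with ACSL3 (-0.59 ± 0.04) and ACSL4 (-0.45 ± 0.05), which activate fatty acids, among those that fell, and OXSM (0.52 ± 0.10), of mitochondrial fatty acid synthesis, among those that rose. In CHLA-20 14 fell and 4 rose. DGAT1, which makes triglyceride, fell there (-0.75 ± 0.06), as did ACACB (-0.41 ± 0.08), the second acetyl-CoA carboxylase, while GPAM, which starts glycerolipid synthesis, rose (0.40 ± 0.04).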

How the data were processed

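RNA-seq of 8 libraries was analysed. The authors deposited 1 file of raw counts per library, and STAR, HTSeq and DESeq2 on GRCh38 are named in the submitters' processing notes; versions, annotation and strand setting are not given in the sources used here. Without strand, reads of a gene and an antisense partner cannot be told apart. Rows that name no gene stayed out: of all counts in a file, 5.15% to 6.86% had no feature, 6.77% to 7.18% were ambiguous and 19.2% to 22.0% were not unique. All 58721 identifiers were found in GENCODE 29, which gave symbols, coordinates and exonic lengths.

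Counts were filtered with filterByExpr, scaled by TMM and fitted with edgeR 4.0.16 (R 4.3.3) in 1 quasi-likelihood model over 4 groups with no block, which left 4 residual degrees of freedom. The fit also shares the estimate of spread between genes, so the p-values do not rest on these degrees of freedom alone. P-values were adjusted by Benjamini-Hochberg over 19395 genes, with a threshold of 0.05, and the SE is the absolute log2 change over the square root of F. The code was tested on simulated data. Depth limits a count of 0 to at most 0.0904 CPM (3 counts), for counting error only.

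Members and lists were chosen with earlier results of these data known. Some genes of 2 of the other lists (sterol synthesis and uptake, and SREBP processing) are not reported here; they were left out after their values were seen, so the counts and named genes of these lists are over the remaining genes. Every member is named; values per library are given for the regulators and for members changed at least 1.5-fold and past the threshold in a line or in the difference, and up to 3 genes that passed are named per other list and line. Alternatives were other scalings, DESeq2 1.42.0, other filters, fits per line, a replicate block, removal of the GC trend, and each library left out. Leaving out ACACA, or ACACA, ACAT2 and CYP51A1, was added after seeing the data.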

Additional observations from a re-analysis of the deposited data

Results flagged for a closer look

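The difference between the JSK591 effects in NGP and in CHLA-20 (NGP minus CHLA-20, log2 scale) passed edgeR's interaction test, adjusted over all genes, in 20 members, which are given here with that difference. In the mevalonate arm it was -0.89 for IDI1, -0.86 for HMGCS1, -0.53 for ACAT2 and -0.52 for MVK. In the squalene and sterol arm it was -0.68 for MSMO1, -0.65 for SC5D, -0.59 for HSD17B7, -0.58 for SQLE, -0.48 for CYP51A1, -0.44 for FDFT1, -0.36 for EBP, -0.28 for NSDHL, -0.19 for DHCR7 and -0.18 for LBR. Of the sterol carriers, STARD4 had -0.69 and TMEM97 -0.46. In the fatty acid arm it was -0.56 for ACSS2, -0.21 for FADS2 and 0.42 for FASN. The regulator SREBF2 had 0.15.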

How the results depend on the processing

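Removing the trend with GC content moved the results most. The members' median log2 change was then -0.0296 in CHLA-20, -0.33 for the difference and 0.073 between lines with DMSO, and with the block added -0.029, -0.33 and 0.073. Total count scaling gave 0.021 between lines. Members higher in NGP numbered 0 with DESeq2, with no filter, and after GC correction with or without the block, and after GC correction 1 member had a higher difference. Calls of single members lost with the direction kept numbered 7 with DESeq2, 11 with no filter and 4 under total count scaling. After GC correction 6 were lost in this way and 5 were added. The call of SCAP in CHLA-20 was lost there too, with its direction changed (0.0062, adjusted p = 0.916). The causes were not tested. With 1 library left out, the medians ran over -0.085 to -0.014 in CHLA-20, -0.37 to -0.31 in NGP, -0.25 to -0.18 for the difference and -0.039 to 0.077 between lines. Members higher then numbered 0 to 2 in NGP and 1 to 2 for the difference, and members lower 22 to 26 in NGP, 13 to 15 in CHLA-20 and 15 to 19 for the difference. An arm left with 1 library was assumed to vary like the other groups.

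Direction changed in the following members, none of which passed where it changed. EBP in CHLA-20 was 0.00500 under total count scaling, 0.00029 under the stricter filter of 10 counts, 0.015 in the fit of its own line, and 0.029 or, with the block, 0.0297 after GC correction. The corrected values, first without and then with the block, were 0.0062 and 0.0063 for SCAP, 0.025 and 0.025 for FADS2, -0.021 and -0.021 for IDI1, and -0.011 and -0.011 for SQLE in CHLA-20, and -0.051 and -0.051 for FASN in NGP. LBR in NGP was 0.0011 under total count scaling. With 1 library left out, CHLA-20 values ran over -0.028 to 0.037 for EBP, -0.38 to 0.14 for ACACA, -0.055 to 0.14 for IDI1, -0.0095 to 0.055 for MVK and -0.14 to 0.0056 for NSDHL, and NGP values over -0.698 to 1.16 for ACACA, -0.0041 to 0.079 for FASN and -0.195 to 0.076 for INSIG2. Single members were recomputed for both lines, for differences that passed or belong to members changed 1.5-fold, and for 1.5-fold differences between lines with DMSO, a limit set after the alternatives had been seen.

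The labels do not say whether same-numbered libraries belong together. Their deviations from the group means had correlations of -0.027 to 0.012 over all genes tested, where a weak shared effect could go unseen. Neither form of the replicate block on its own changed a compared call: 25 members fell in NGP and 15 in CHLA-20 with it, as without it.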
